A study of Mus musculus with 6 samples.

Results

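The 8 genes described here were 4 targets and feedback regulators of Wnt/β-catenin signalling (Lef1, Axin2, Apcdd1 and Nkd1), the Wnt and Norrin receptor Fzd4, and 3 transcription factors of brain endothelial cells (Foxf2, Foxq1 and Sox17). They were chosen by name and not by a cut on a measured value, but with earlier results of these data known. Each was listed under the same identifier in all 6 libraries, among 31053 genes listed for the cortex and 27998 for the hippocampus. The libraries held single cells from the brains of female wild-type C57Bl/6J mice. In prep 1 the cortices of 3 mice aged 3 weeks were pooled into 1 suspension, and in prep 3 the hippocampi of 3 mice aged 5 weeks were pooled into 1 suspension. Each suspension gave 3 technical replicate libraries, so each region was 1 biological sample, and no test between conditions was possible. Region, age, preparation and gene annotation changed together and cannot be told apart. The labels name no transgene and no treatment, and cells were loaded without sorting.

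In the canonical Wnt pathway, secreted Wnt ligands or Norrin bind Frizzled receptors with Lrp5 or Lrp6, the destruction complex built on Axin is held off, and β-catenin accumulates and acts with TCF/LEF factors on target genes. In brain endothelial cells this pathway is known for building and keeping the blood-brain barrier, with Wnt7a and Wnt7b from neural cells and Norrin (Ndp) from astroglia as ligands. Several target genes encode inhibitors of the pathway, so their transcripts are widely used as a readout of its activity. Foxf2 and Foxq1 are forkhead factors, and Sox17 is a SOX factor known for arterial identity and vessel maturation.

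RefSeq (GRCm38.p6) gave 8 start sites for 5 of the 8 members, and the 250 bases before each were searched on both strands for short motif cores. The cores were CTTTGA for TCF/LEF factors, ACAAT for SOX factors, GTAAACA for forkhead factors and GGAAG for ETS factors. Only 1 of the 8 windows, upstream of the last Lef1 start (an internal start within the gene, outside exons), held the TCF/LEF core, which it held in 2 places, and it also held the SOX core. The Axin2 and Foxf2 windows held neither, and the forkhead core was in none of the 8. Of all 32851 promoter windows of the same length, 13.8% held the TCF/LEF core, 27.7% the SOX core, 3.17% the forkhead core and 64.1% the ETS core, so such matches are a description and not a site. The 3 windows below are those of this internal Lef1 start, picked for its matches, of another Wnt target and of a forkhead member. They read 5′ to 3′ on the plus strand, the strand of the genes, and capitals mark the cores (TCAAAG is CTTTGA and ATTGT is ACAAT on the other strand).
Lef1, chr3:131156044-131156293: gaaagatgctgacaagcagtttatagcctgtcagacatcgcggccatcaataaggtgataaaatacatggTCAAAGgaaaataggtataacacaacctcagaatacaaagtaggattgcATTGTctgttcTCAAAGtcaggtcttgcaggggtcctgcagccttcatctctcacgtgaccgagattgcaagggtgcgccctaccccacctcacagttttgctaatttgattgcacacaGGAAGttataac
Axin2, chr11:108920099-108920348: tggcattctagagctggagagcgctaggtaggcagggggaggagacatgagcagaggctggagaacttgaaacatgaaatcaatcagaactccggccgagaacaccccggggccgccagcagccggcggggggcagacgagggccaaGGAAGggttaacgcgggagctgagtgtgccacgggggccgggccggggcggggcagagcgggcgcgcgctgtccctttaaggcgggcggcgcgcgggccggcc
Foxf2, chr13:31625566-31625815: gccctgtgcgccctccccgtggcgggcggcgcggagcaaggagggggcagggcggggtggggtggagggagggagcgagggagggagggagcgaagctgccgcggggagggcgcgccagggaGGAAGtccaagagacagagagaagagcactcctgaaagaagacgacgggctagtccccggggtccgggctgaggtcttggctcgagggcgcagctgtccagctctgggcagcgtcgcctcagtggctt
This internal Lef1 window was 44.8% G and C, against 69.2% in the Axin2 window and 71.6% in the Foxf2 window, which both lie before the gene. The windows of Lef1 starts 1 and 2 also lie before the gene. They were 66.4% G and C each and held none of the cores. That of Lef1 start 3, within the gene, was 50.8% and held only the ETS core. Promoters of Sox17, Foxq1 and Apcdd1 were not analysed here.

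The members lie on 7 chromosomes in GRCm38 (mm10; GENCODE annotation). Lef1, an HMG-box factor that binds DNA with β-catenin, spans chr3:131110471-131224356. Axin2, a scaffold of the destruction complex and a feedback inhibitor, spans chr11:108920349-108950783. Foxq1 (chr13:31556134-31560976) and Foxf2 (chr13:31625816-31631403) are neighbours on chromosome 13, 64.8 kb apart on the plus strand, and Foxc1, another forkhead gene, follows 175 kb after Foxf2. Fzd4 (chr7:89404355-89413134), Nkd1 (chr8:88521354-88594884) and Apcdd1 (chr18:62922231-62961179) are also on the plus strand, and Sox17 (chr1:4490931-4497354) is on the minus strand. The exons of 5 members (Lef1, Axin2, Foxf2, Foxq1 and Sox17) overlap an exon of a transcript on the other strand, from 98 bases at Foxf2 to 3200 bases at Foxq1. The sources used here do not say whether strand was used in counting, so reads of these 5 members and of their overlapping transcripts may not be separable.

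The cortex libraries held 5834 to 6121 barcodes and 39662203 to 42097490 UMIs (unique molecular identifiers, each standing for 1 captured RNA molecule), and the hippocampus libraries held 4894 to 5232 barcodes and 43963706 to 50024850 UMIs. The 3 hippocampus libraries shared 257 to 304 barcodes pair by pair, 5.25% to 5.83% of the smaller library, against 11 to 22 barcodes between cortex libraries. Leaving those barcodes out removed 3 of 1855 hippocampal endothelial cells. Cells were clustered and each cluster was named from marker genes that held no member, so the names below stand for endothelial-like, pericyte-like cells and so on, with the suffix left out. All 14 endothelial markers were found in the endothelial class of both regions, which held 2682 cells in the cortex and 1855 in the hippocampus, with medians of 6932 and 6882 UMIs. Levels are given as CPM, the UMIs of a gene scaled to a total of 1000000 UMIs over the cells summed, first over the class and then for libraries 1, 2 and 3, and intervals are 95% intervals that cover counting error only. CPM was not divided by transcript length, so levels are compared between cells for 1 gene and not between genes. A gene was called higher or lower past 2-fold.

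All 8 members were found in endothelial cells of both regions, and 5 of them (Lef1, Apcdd1, Fzd4, Foxq1 and Sox17) had their highest level there among the named classes. Axin2 was highest in fibroblasts or pericytes, Nkd1 in vascular smooth muscle cells (VSMCs), and the Foxf2 levels of endothelial cells and pericytes overlapped. Lef1 stood at 325 CPM in cortical endothelial cells (321, 334 and 320) and at 385 CPM in hippocampal ones (386, 375 and 393). Foxq1 stood at 440 CPM (444, 438 and 438) and 613 CPM (638, 614 and 587). Sox17 stood at 337 CPM (309, 357 and 348) and 409 CPM (404, 415 and 409). For these 3 genes the technical replicates of a region lay close together, with SDs of 3.47 to 25.5 CPM, and the libraries of the hippocampus were all above those of the cortex. The same order of libraries was seen in endothelial cells for 35.1% of the 12746 genes compared between the regions.

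The other members were spread in the same way around their means. Apcdd1, a membrane-bound Wnt inhibitor, was found at 41.2 CPM in cortical endothelial cells (42, 44.7 and 36.4) and 30.3 CPM in hippocampal ones (25.6, 31.9 and 33.5). Nkd1, an antagonist that binds Dishevelled, was found at 226 CPM (223, 215 and 241) and 219 CPM (211, 238 and 209). The Apcdd1 libraries of the regions did not overlap and those of Nkd1 did. Of all genes compared between the regions in endothelial cells, 14.1% were lower in the hippocampus without overlap of libraries. Fzd4 stood at 180 CPM (186, 184 and 170) in the cortex and 131 CPM (130, 133 and 131) in the hippocampus. Foxf2 stood at 156 CPM (161, 151 and 158) and 160 CPM (165, 163 and 153), and Axin2 at 60.6 CPM (61.4, 59.1 and 61.5) and 89.5 CPM (94.1, 91 and 83.3). Endothelial cells were not the highest class for Axin2 and Nkd1, and for Foxf2 the libraries of endothelial cells and pericytes overlapped in both regions.

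**Figure D1:**
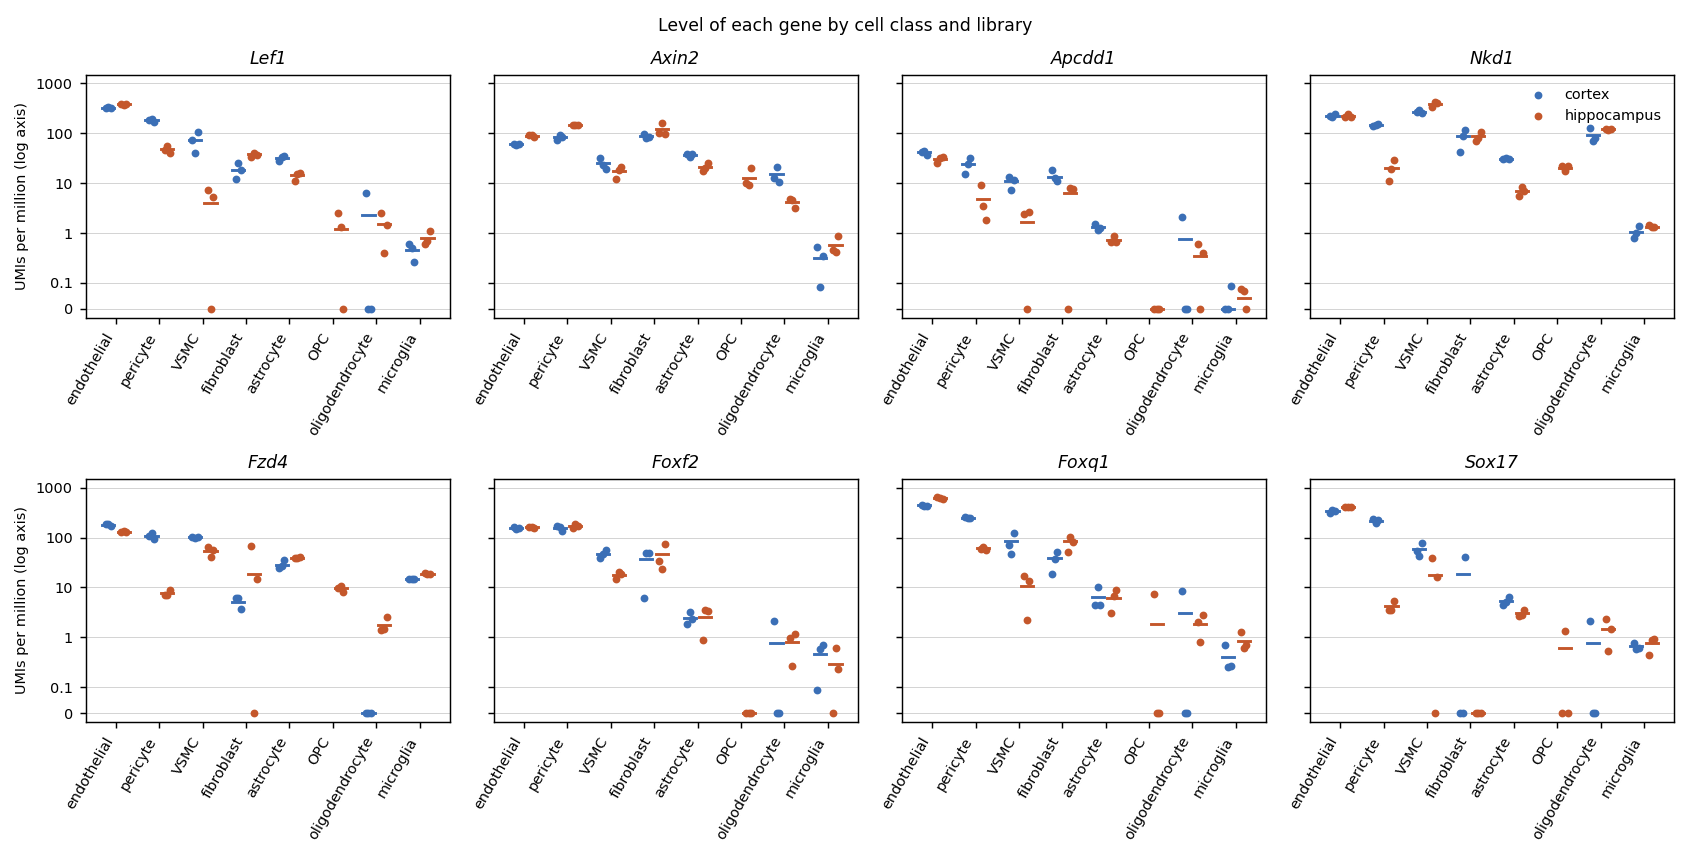
Level of each member in CPM (log axis, with levels of 0 drawn at the mark 0) in the named cell classes of the cortex and the hippocampus. Bars are the sums over 3 technical replicate libraries and dots are single libraries; Lef1, Foxq1 and Sox17 peak in endothelial cells, Nkd1 reaches 269 and 384 CPM in VSMCs, and Fzd4 keeps 14.8 and 18.9 CPM in microglia.

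Against mural cells (pericytes and VSMCs summed), Lef1, Apcdd1, Foxq1 and Sox17 were past 2-fold higher in cortical endothelial cells, and the same 4 and Fzd4 were in hippocampal ones, while no member was past 2-fold lower. That was 4 of 8 members in the cortex and 5 of 8 in the hippocampus, where 7.92% and 18% of all genes tested were past 2-fold higher in endothelial cells and 14.6% and 15.7% past 2-fold lower. The largest ratios in the hippocampus were those of Sox17, with a log2 ratio of 5.36 [4.83, 5.94], Foxq1 with 3.95 [3.69, 4.23] and Lef1 with 3.72 [3.41, 4.04]. In the cortex the same genes stood at 1.18 [1.08, 1.27], 1.30 [1.21, 1.38] and 1.26 [1.17, 1.37]. The cortical mural cells carried endothelial RNA. The summed level of the 14 endothelial markers was 56.6% of that of endothelial cells in cortical pericytes and 19.4% in cortical VSMCs, against 4.98% and 2.28% in the hippocampus, and doublet calls covered 7.74% of cortical pericytes and 17.9% of cortical VSMCs.

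The cortical pericytes fell into 2 subclusters that differed in this endothelial RNA. The first held 202 cells with a median of 16355 UMIs, 12.4% doublet calls and endothelial markers at 66% of the endothelial level, and the second held 134 cells with a median of 4272 UMIs, 0.746% doublet calls and markers at 6.86%. With all cortical pericytes, none of the 8 members was past 2-fold higher in endothelial cells, where 5.08% of genes were (10.5% lower). With only the subcluster poor in endothelial RNA, a choice made after the values were seen, 6 of 8 were (Lef1, Apcdd1, Nkd1, Fzd4, Foxq1 and Sox17), and the share of all genes rose with it, to 21.5% (17.8% lower). Over all mural cells the same choice gave 6 of 8 members, with Fzd4 and Foxf2 added to the 4 above, and 22.3% of genes (14.7% lower). In the hippocampus the same 6 members were past 2-fold higher in endothelial cells than in pericytes, where 18.7% of genes were (15.8% lower). Cortical mural levels of single genes below are therefore from the pericyte subcluster of 134 cells and from a VSMC subcluster of 167 cells with endothelial markers at 4.81%. The other 62 cortical VSMCs, of which 48.4% were doublet calls, were left out of these levels. Where all pericytes or all subclusters were used, this is said. The correlations over classes and the counts and medians of gene lists against mural cells use all mural cells.

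Axin2 was higher in pericytes than in endothelial cells in both regions. In cortical pericytes it stood at 105 CPM (78.3, 99 and 135), and in hippocampal pericytes at 146 CPM (144, 148 and 147). Every pericyte library was above every endothelial library of its region, with log2 endothelial to pericyte ratios of -0.79 [-1.15, -0.41] and -0.71 [-0.91, -0.51], which are 1.73-fold and 1.63-fold and so within the 2-fold threshold. These are technical replicates, and the share of all genes whose libraries separated between these classes was not computed. In all cortical pericytes Axin2 was at 84 CPM (74.1, 93.1 and 83.3), still above the endothelial level. Among pericytes with at most 2 endothelial marker UMIs after thinning to 2000 UMIs, the level was 119 CPM in 61 cortical cells and 148 CPM in 192 hippocampal cells. Axin2 was also found in fibroblasts, at 86.2 CPM (98.2, 80.9 and 82.1) and 122 CPM (102, 158 and 97.2), classes of 54 and 38 cells. In VSMCs it was lower, at 19.3 and 17.2 CPM.

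Foxf2, a forkhead factor known in both brain pericytes and the endothelium, stood in pericytes at 139 CPM in the cortex (146, 151 and 121) and 170 CPM in the hippocampus (153, 184 and 174). Its log2 endothelial to pericyte ratios were 0.17 [-0.14, 0.49] and -0.08 [-0.26, 0.10], and the libraries overlapped in both regions. In the 61 cortical pericytes with the fewest endothelial marker UMIs the Foxf2 level was 72.2 CPM [45.7, 108], and there the endothelial level was past 2-fold higher, while in the 192 such hippocampal pericytes it was 182 CPM [156, 211]. In VSMCs Foxf2 was at 21.3 and 18 CPM. Its neighbour Foxc1 was above the endothelial level in the pericytes of both regions, at 335 CPM in the cortex (344, 325 and 335) against 156 CPM and at 335 CPM in the hippocampus (352, 316 and 336) against 197 CPM, with log2 ratios of -1.10 [-1.31, -0.89] and -0.77 [-0.90, -0.63]. Foxq1, the other neighbour, was at 64.7 and 60.7 CPM in pericytes, far under its endothelial level. Foxc1 was described for its position beside 2 members, after its values were seen.

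Nkd1 stood above its endothelial level in VSMCs of both regions, though within the 2-fold threshold. It stood at 331 CPM in the cortex (329, 340 and 324) and at 384 CPM in the hippocampus (329, 425 and 396), and every VSMC library was above every endothelial library. For this separation of technical replicates, too, the share of all genes was not computed. The log2 endothelial to VSMC ratios were -0.55 [-0.67, -0.43] and -0.81 [-0.95, -0.67], which are 1.46-fold and 1.75-fold. Endothelial to VSMC ratios were not recomputed under the alternatives. Pericytes held far less Nkd1, at 34 CPM in the cortex and 19.6 CPM in the hippocampus, so this antagonist separated the mural classes in the opposite direction to Axin2. Fzd4 was also kept in VSMCs, at 93.5 CPM (88.3, 95.7 and 96.8) and 53.1 CPM (63.9, 40.9 and 55.8), which were 51.8% and 40.6% of the endothelial level, and in pericytes it was at 32.3 and 7.73 CPM. In VSMCs of all subclusters, 6 of 8 members in the cortex and 7 of 8 in the hippocampus were past 2-fold lower than in endothelial cells, where 16.6% and 29.6% of genes were (14.6% and 12.1% past 2-fold higher in VSMCs).

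Sox17, Lef1, Apcdd1 and Foxq1 were past 2-fold lower in both mural classes than in endothelial cells. Hippocampal pericytes held 7 UMIs of Sox17 in all, 4.16 CPM, and the 134 cortical pericytes held 8, 12.9 CPM, against 409 and 337 CPM in endothelial cells. In the 61 cortical pericytes with the fewest endothelial marker UMIs no Sox17 UMI was found. Lef1 was at 34 and 47.6 CPM in pericytes and at 7.62 and 4.09 CPM in VSMCs. Foxq1 was at 64.7 and 60.7 CPM in pericytes and at 16.3 and 10.6 CPM in VSMCs. Apcdd1 was at 9.7 and 4.76 CPM in pericytes and at 4.57 and 1.63 CPM in VSMCs. In pericytes this was 23.6% and 15.7% of its low endothelial level, from 6 and 8 UMIs, with endothelial markers at 6.86% and 4.98%. For Sox17 the shares were 3.83% and 1.02%.

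**Figure D2:**
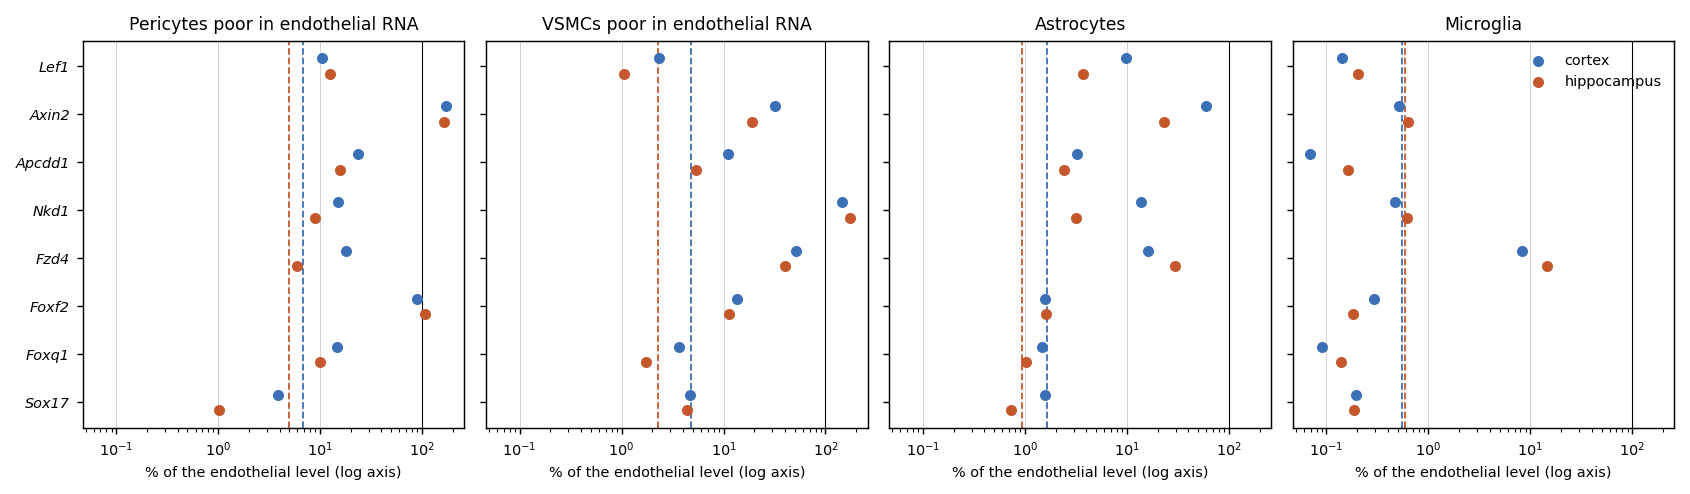
Level of each member as a percentage of its level in endothelial cells of the same region, in pericytes and VSMCs poor in endothelial RNA, astrocytes and microglia. Dashed lines give the summed level of the 14 endothelial markers in the same cells; Axin2 and Foxf2 stand near or above 100% in pericytes, Nkd1 stands at 146% in cortical VSMCs, and Fzd4 is the member farthest above the dashed line in microglia.

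Against glia, nearly all members were past 2-fold higher in endothelial cells. In the cortex 7 of 8 were past 2-fold higher than in astrocytes and all 8 than in microglia and in oligodendrocytes, where 25%, 26.2% and 28.2% of genes were (26.5%, 22.1% and 20.3% lower). In the hippocampus 8 of 8 were past 2-fold higher than in astrocytes, microglia and oligodendrocyte precursor cells (OPCs), and 7 of 8 than in oligodendrocytes, where 25.2%, 25%, 19.3% and 30.7% of genes were (26.3%, 22%, 22.3% and 19.4% lower). The exceptions were Axin2 in cortical astrocytes and Nkd1 in hippocampal oligodendrocytes. The 3 transcription factors were low in astrocytes, with Foxf2, Foxq1 and Sox17 at 1.58%, 1.48% and 1.57% of their endothelial level in cortical astrocytes and 1.6%, 1.02% and 0.736% in hippocampal ones. Endothelial markers stood at 1.65% and 0.943% in the same astrocytes, and with doublet calls left out the log2 ratios of the 3 factors rose from 5.98, 6.08 and 6.00 to 9.32, 9.64 and 8.24 in the cortex and from 5.96, 6.62 and 7.09 to 7.67, 9.23 and 9.76 in the hippocampus.

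With doublet calls kept, astrocytes held Axin2, Lef1, Nkd1 and Fzd4 beyond that background. Axin2 stood at 36.3 CPM in cortical astrocytes (37.5, 33.2 and 38.2), 59.8% of its endothelial level, and at 20.9 CPM in hippocampal ones (17.5, 20.1 and 25), 23.3%. Leaving out doublet calls kept the log2 endothelial to astrocyte ratio of Axin2 at 0.75 in the cortex (0.74 with them) and 2.09 in the hippocampus (2.10 with them). Fzd4 stood at 28.7 CPM (24, 27.2 and 35.5) and 38.9 CPM (38.3, 38.3 and 40.2), which were 15.9% and 29.7% of the endothelial level. Lef1 was at 32 CPM (27.7, 33.6 and 35) in cortical and 14.3 CPM (11.2, 15.3 and 16.3) in hippocampal astrocytes, and Nkd1 at 30.9 CPM (30.9, 31.4 and 30.4) and 6.91 CPM (5.48, 8.32 and 6.91). With doublet calls kept, these 4 members were above the endothelial marker background in astrocytes of both regions. Apcdd1, at 3.21% and 2.42%, was closer to it, but hippocampal Nkd1, at 3.15%, was not far from Apcdd1. Without doublet calls the log2 ratios of Lef1, Nkd1 and Fzd4 rose in both regions. That of Lef1 went from 3.34 to 3.66 in the cortex, and that of Nkd1 from 4.99 to 5.43 in the hippocampus. The part of oligodendrocyte RNA in the astrocyte level of Nkd1 was not tested.

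Among the other glia, oligodendrocytes held Nkd1 and microglia held Fzd4. Nkd1 stood at 120 CPM in the 1077 hippocampal oligodendrocytes (122, 117 and 120) and at 93.2 CPM in the 66 cortical ones (128, 68.5 and 81.7), with log2 endothelial to oligodendrocyte ratios of 0.87 [0.80, 0.95] and 1.28 [1.02, 1.55]. Endothelial markers were at 0.389% and 0.592% there, and the other members were at most 4.21 CPM in the hippocampal class. Fzd4 stood at 14.8 CPM in cortical microglia (15, 14.6 and 14.9) and 18.9 CPM in hippocampal ones (19.4, 18.6 and 18.7), 8.22% and 14.4% of the endothelial level, with endothelial markers at 0.556% and 0.589%. Each of the other 7 members was at 0.631% or less in microglia. In the 346 hippocampal OPCs the levels were 20.1 CPM for Nkd1, 12.8 CPM for Axin2 and 9.73 CPM for Fzd4, while Apcdd1 and Foxf2 had no UMI. Outside vascular cells and glia, Lef1 reached 98.9 CPM in a cortical class of 123 cells (104, 120 and 84.5), where endothelial markers stood at 16.4% of the endothelial level. This class was named neuron from its markers, but its leading genes also held Top2a, Mki67 and Birc5, genes of cycling cells. In the hippocampus Fzd4 reached 46.1 CPM in 825 cells named epithelial (46, 39.5 and 52), with endothelial markers at 0.963%. Shared barcodes made up 67.6% of these cells, and without them Fzd4 was at 37.7 CPM. Axin2 reached 43.5 CPM in 211 cells named ependymal (54.5, 28.1 and 45.5), with endothelial markers at 1.69%.

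Along the vessel, Sox17 was past 2-fold higher in arterial than in venous endothelial cells of both regions, Apcdd1 was past 2-fold lower in both, and Nkd1 was past 2-fold lower in the hippocampus. The direction for cortical Apcdd1 and for Nkd1 depended on which cells were called venous. At clustering resolution 0.2, where the venous cells were Ackr1-rich subclusters of 60 cortical and 21 hippocampal cells, the log2 arterial to venous ratios turned to 0.43 for Apcdd1 in the cortex and to 0.38 and 0.37 for Nkd1 in the cortex and the hippocampus, while hippocampal Apcdd1 was at -0.62. A clustering of all vascular cells also held an Ackr1-led cortical subcluster of 55 cells with Apcdd1 at 15.5 and Nkd1 at 142 CPM, against 20.2 and 188 CPM in its arterial subcluster of 295 cells. Endothelial cells were clustered again with the members and the other listed pathway genes, apart from the markers Cldn5, Mfsd2a and Tfrc, left out of the variable genes. Subclusters were then named from segment markers, with Mfsd2a and Tfrc among those of capillaries. This gave 245 arterial and 379 venous cells in the cortex and 466 and 405 in the hippocampus. Of all genes, 6.77% and 5.31% were past 2-fold higher and 5.25% and 4.05% past 2-fold lower in these arterial cells, in the cortex and the hippocampus. The segments came from clustering the same cells, so these values are a description. In each region 3 endothelial subclusters were left unnamed, 4 of the 6 led by astrocyte or mural genes, 1 of 112 hippocampal cells by interferon response genes, and 1 of 382 cortical cells by Unc5b, Hey1 and Efnb2. That last subcluster held Sox17 at 500 CPM (440, 558 and 499), Nkd1 at 274 CPM and Apcdd1 at 40.2 CPM. Gja1, an astrocyte marker, was among the leading genes of the hippocampal capillary subcluster, and the stress gene Fos among those of the main hippocampal arterial subcluster.

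Sox17 stood at 701 CPM in cortical arterial cells (662, 742 and 698) against 235 CPM in venous ones (218, 252 and 233), a log2 ratio of 1.58 [1.47, 1.69]. In the hippocampus it was at 640 CPM (620, 658 and 641) against 319 CPM (331, 334 and 286), a log2 ratio of 1.00 [0.91, 1.10], which lies at the threshold and was 0.94 without hippocampus replicate 3. Arterial and venous libraries did not overlap in either region, but the share of all genes without such overlap was not computed. Apcdd1 went the other way, at 17.8 CPM (20.2, 12.2 and 21.4) against 42.6 CPM (42.3, 49.3 and 35.9) in the cortex and 13.2 CPM (13.2, 11.2 and 15.3) against 38.2 CPM (32.5, 37.9 and 45.1) in the hippocampus. Its log2 ratios were -1.26 [-1.78, -0.77] and -1.53 [-2.0, -1.07], and without cortex replicate 2 the first was -0.91, within the 2-fold threshold.

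Nkd1 stood at 175 CPM in arterial (185, 144 and 198) against 270 CPM in venous cells (277, 250 and 285) of the cortex, and at 136 CPM (132, 157 and 120) against 295 CPM (278, 325 and 281) in the hippocampus, with log2 ratios of -0.63 [-0.79, -0.46] and -1.12 [-1.27, -0.97]. Lef1 and Fzd4 stayed within the 2-fold threshold, with log2 ratios of -0.45 and -0.57 for Lef1 and -0.46 and -0.73 for Fzd4 in the cortex and the hippocampus. By contrast, Axin2, another Wnt target, had ratios of 0.12 [-0.19, 0.42] and -0.04 [-0.26, 0.18], and its libraries overlapped. Foxf2 (0.01 [-0.18, 0.20] and -0.11 [-0.28, 0.05]) differed as little, and Foxq1 had ratios of 0.29 [0.18, 0.40] and -0.02 [-0.10, 0.06], the second of which was 1.11 at resolution 0.2. In the main capillary subclusters, of 1040 cortical and 756 hippocampal cells, the 4 Wnt targets were above their mean over all endothelial cells, with Lef1 at 367 and 411 CPM, Axin2 at 65.7 and 102 CPM, Apcdd1 at 49 and 39 CPM, and Nkd1 at 242 and 235 CPM.

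At the ends of the range were 2 small subclusters. A hippocampal arterial subcluster of 29 cells held 1 UMI of Apcdd1 and 6 of Nkd1 (19.4 CPM), with Lef1 at 126 and Axin2 at 38.8 CPM, while Sox17 was at 660 CPM and Foxq1 at 566 CPM. A cortical capillary subcluster of 131 cells held Fzd4 at 342, Foxf2 at 236, Axin2 at 95.2 and Apcdd1 at 69.2 CPM. In the 249 cortical angiogenic cells Sox17 was at 168 CPM and Axin2 at 41.3 CPM, both under every other named cortical subcluster. Apcdd1 itself was among the 10 leading genes of the main cortical capillary subcluster.

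**Figure D3:**
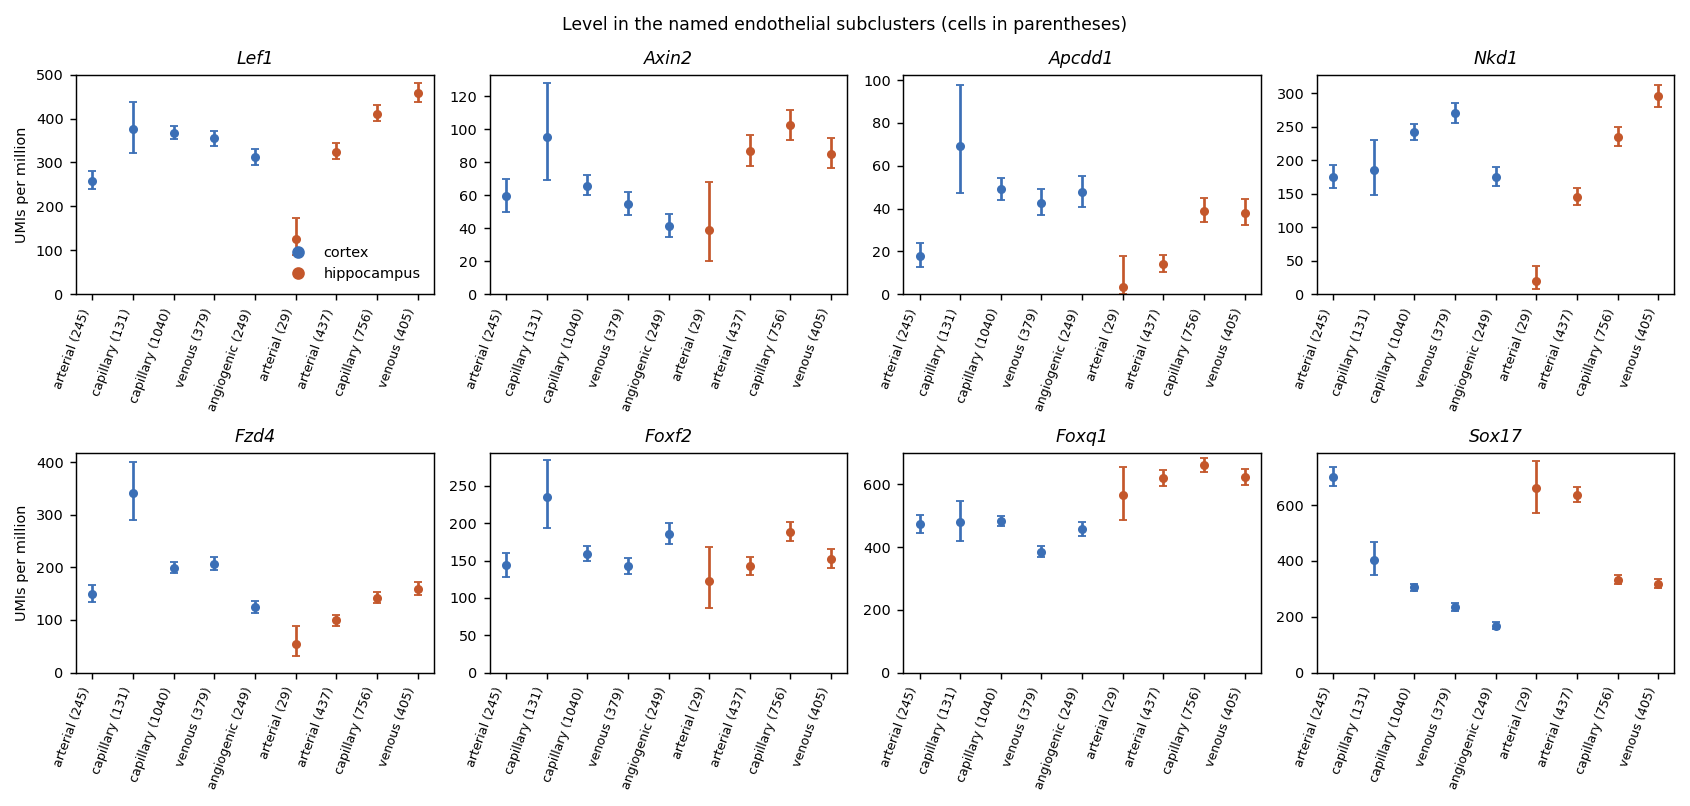
Level of each member in CPM in the named endothelial subclusters of both regions, with the number of cells in each and 95% Poisson intervals that cover counting error only. Sox17 stands at 701 and 640 CPM over all arterial cells against 235 and 319 CPM in venous ones, Apcdd1 is lower in these arterial than in these venous cells, and Axin2 and Foxf2 vary little between arterial and venous cells.

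A hippocampal endothelial subcluster of 12 cells that led with Plvap lacked most Wnt targets. Plvap encodes the diaphragm protein of fenestrated and immature endothelium, which barrier endothelium lacks. The cells came from all 3 libraries (5, 4 and 3 cells), held 80941 UMIs, and included no doublet call and no shared barcode. The hippocampal preparation also held 825 cells named epithelial from markers such as Ttr and Folr1, and 211 named ependymal. Which part of the dissected tissue the 12 cells came from was not tested. The subcluster was singled out after its values were seen, and the members had been left out of the variable genes. Cldn5 and Mfsd2a, which are also markers, had not been left out. No UMI of Lef1, Axin2, Apcdd1, Nkd1 or Foxq1 was found, which allows at most 37.1 CPM each, where the other 1843 hippocampal endothelial cells held 387, 90, 30.5, 221 and 617 CPM. With 3 counts allowed for a count of 0, the other cells were at least 10.4-fold higher for Lef1, 2.43-fold for Axin2, 5.95-fold for Nkd1 and 16.6-fold for Foxq1. The exact 95% intervals reach further, to 45.6 CPM in the 12 cells and to log2 ratios of -3.09, -0.98, -2.27 and -3.76. That of Axin2 thus reaches inside the 2-fold threshold. A difference in Apcdd1 was not detectable at this depth.

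Fzd4, in contrast, was kept in these cells. It had 21 UMIs in 11 of the 12 cells, 259 CPM [161, 397], against 130 CPM in the other endothelial cells, a log2 ratio of 0.99 [0.30, 1.61]. Sox17 had 6 UMIs (74.1 CPM) against 411 CPM, a log2 ratio of -2.47 [-3.92, -1.35], and Foxf2 had 3 UMIs (37.1 CPM) against 161 CPM, a log2 ratio of -2.12 [-4.40, -0.57]. The endothelial genes Pecam1 (1186 against 651 CPM) and Cdh5 (1025 against 566 CPM) were found in all 12 cells, as was Plvap itself (3830 against 1.02 CPM). Markers of the endothelial class did not all move this way. Ly6c1 (1878 against 4500 CPM) and Itm2a (680 against 4616 CPM) were lower, as was Cldn5, and Slco1a4 had no UMI (against 2613 CPM). The remaining markers (Flt1, Kdr, Tek, Emcn, Egfl7, Esam, Tie1 and Eng) were above the other cells, though Flt1, Tek and Esam only by little. Of the barrier genes, the tight junction gene Cldn5 was at 37.1 against 7868 CPM, the glucose transporter Slc2a1 at 61.8 against 1742 CPM, and the lipid transporter Mfsd2a had no UMI. In cortical endothelial cells Plvap was at 0.255 CPM, or 6 UMIs. The same 12 cells came together in 3 of 4 clusterings, and at resolution 0.2 they lay within a subcluster of 98 cells.

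**Figure D4:**
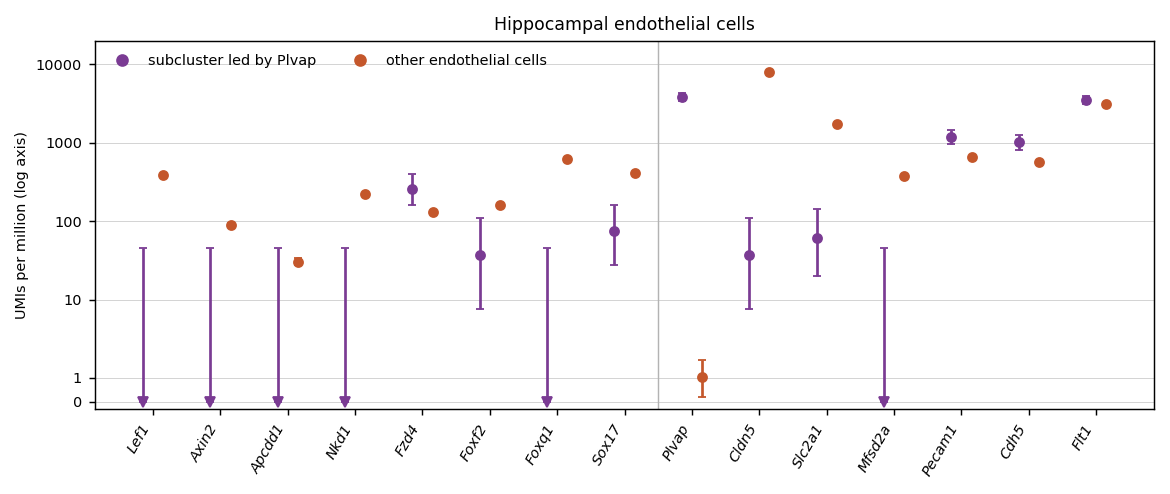
Level in CPM (log axis) of the 8 members and 7 endothelial or barrier genes in the 12 Plvap-led cells and in the other hippocampal endothelial cells, with 95% Poisson intervals. Triangles mark genes with no UMI in the 12 cells; Lef1, Axin2, Apcdd1, Nkd1, Foxq1 and Mfsd2a are at 0 there, while Fzd4, Pecam1 and Cdh5 are above the level of the other cells.

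Between the regions, no member was past 2-fold in endothelial cells, where 4.31% of 12746 genes were past 2-fold higher and 3.82% past 2-fold lower in the hippocampus. The median gene had a log2 hippocampus to cortex ratio of 0.14, and values are also given relative to it. Axin2 and Foxq1 were higher in the hippocampus, with log2 ratios of 0.56 [0.45, 0.67] and 0.48 [0.44, 0.52], which are 0.42 and 0.34 above the median gene. Sox17 at 0.28 [0.23, 0.33] and Lef1 at 0.24 [0.19, 0.29] were 0.14 and 0.10 above it. Fzd4 and Apcdd1 were lower, at -0.46 [-0.54, -0.38] and -0.44 [-0.61, -0.28], or -0.60 and -0.58 relative to the median gene. Nkd1 at -0.04 [-0.11, 0.02] and Foxf2 at 0.04 [-0.04, 0.11] stood close to 0, with 8.55% and 7.46% of genes differing less, and the sign of Foxf2 turned under 5 alternatives, both other scalings among them.

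The technical replicates of the regions did not overlap for 6 of the 8 members (Lef1, Axin2, Foxq1 and Sox17 higher and Apcdd1 and Fzd4 lower in the hippocampus). This was true of 35.1% of all genes for higher and 14.1% for lower values, so a lack of overlap between technical replicates was common. The share of genes with a smaller change than the member was 80% for Axin2, 74.8% for Foxq1, 73.6% for Fzd4 and 72.2% for Apcdd1. The 4 Wnt targets did not move together, since Axin2 was higher, Apcdd1 lower and Nkd1 close to 0. Of 10 dissociation stress genes, 3 were past 2-fold higher in hippocampal endothelial cells, with Fos at 114 against 47.4 CPM, Hspa1a at 244 against 81.7 CPM and Nr4a1 at 41.6 against 20.8 CPM, and their part in the members' differences was not tested.

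In astrocytes 2 of the 4 Wnt targets, Nkd1 and Lef1, were past 2-fold lower in the hippocampus. Nkd1 was at 6.91 against 30.9 CPM, a log2 ratio of -2.16 [-2.49, -1.84], and Lef1 was at 14.3 against 32 CPM, a log2 ratio of -1.17 [-1.41, -0.93]. Of all astrocyte genes 3.97% were past 2-fold lower and 7.5% higher, with a median of 0.11. Axin2 was within the threshold at -0.80 [-1.0, -0.59], as was Apcdd1 at -0.85 [-2.08, 0.28], which had 10 UMIs in the hippocampus and 23 in the cortex. Fzd4 was higher in the hippocampus in the same cells, at 0.44 [0.26, 0.62], in contrast to its lower endothelial level. Endothelial marker RNA also differed between these astrocytes (1.65% and 0.943% of the endothelial level), and its part in the differences was not tested. In microglia Fzd4 had a log2 ratio of 0.35 [0.19, 0.51], within the 2-fold threshold. Its libraries did not overlap, but the share of all microglial genes without overlap was not computed. Mural cells are not compared between regions for members other than Nkd1 in VSMCs, which was at 384 against 331 CPM in the subclusters poor in endothelial RNA, because of the endothelial RNA in the cortical mural cells.

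**Figure D5:**
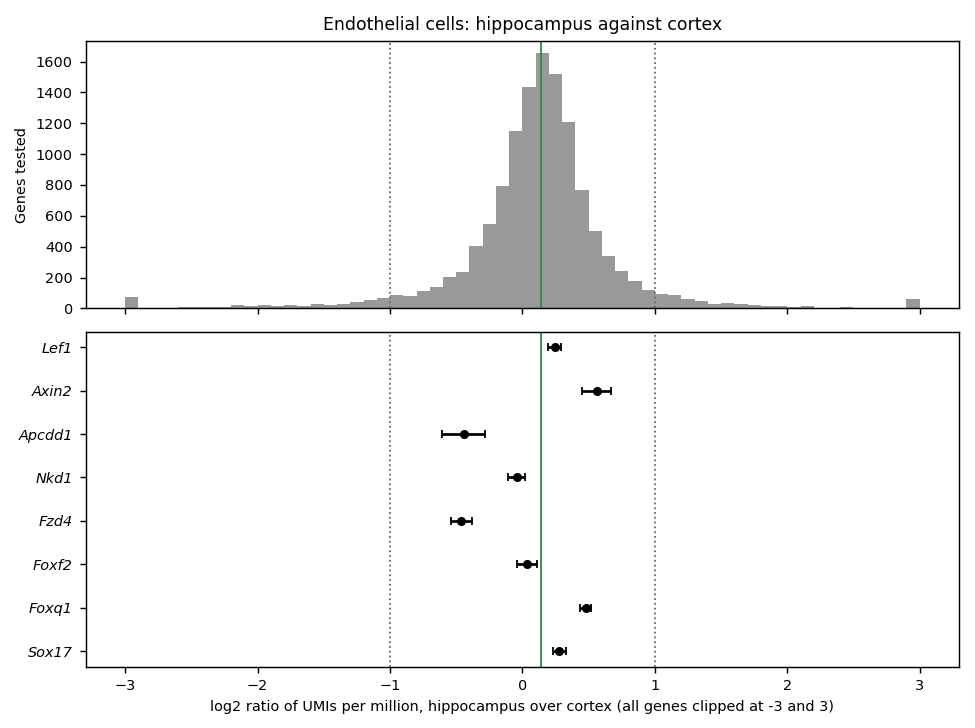
Histogram of the log2 hippocampus to cortex ratio of the 12746 genes tested in endothelial cells (values beyond -3 or 3 drawn at the ends), with the 8 members as points with 95% intervals. Dotted lines mark 2-fold and the green line the median gene (0.14); all members lie inside the dotted lines, from Fzd4 at -0.46 to Axin2 at 0.56.

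After each cell was thinned to 2000 UMIs, Foxq1 was found in 54.1% of 2620 cortical and 62.8% of 1829 hippocampal endothelial cells, Lef1 in 46.2% and 51.3%, and Sox17 in 47% and 50.5%. Nkd1 was found in 33.8% and 31.9%, Fzd4 in 30.6% and 22.8%, Foxf2 in 25% and 28.2%, Axin2 in 12.7% and 17.3%, and Apcdd1 in 8.09% and 5.74%. Without thinning the shares ran from 27% for Apcdd1 to 84.9% for Foxq1 in the cortex and from 19.5% to 89.4% in the hippocampus. Cells under 2000 UMIs were left out, 62 and 26 of the endothelial cells. In microglia, with medians of 5472 and 6638 UMIs, 7 members were found in at most 0.233% of cells and Fzd4 in 2.95% and 3.8%, so Fzd4 stood apart from the other members there.

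An endothelial cell held 2.57 of the 8 members on average in the cortex and 2.70 in the hippocampus at that depth, against 0.25 and 0.168 in astrocytes and 0.0363 and 0.0469 in microglia. At least 3 members were found in 50.6% and 54.8% of endothelial cells, and none in 4.12% and 3.06%. Over the 28 pairs of members, the correlation across endothelial cells ran from -0.03 to 0.05 in the cortex and from -0.08 to 0.10 in the hippocampus, which in counts this sparse is no finding.

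The genes whose levels followed each member most closely were found over 60 points (20 classes of the 2 regions in 3 libraries each) among 13201 genes, by Pearson's r of log2(CPM + 1). The points share suspensions and depth, so r is a description. Tie1, Flt1, Tek and Esam, named below, were among the 14 markers that named the endothelial class, so their closeness is no separate finding. Some classes carried endothelial RNA, with endothelial markers at 56.6% of the endothelial level in cortical pericytes and 20.8% in cortical erythroid cells. The part of this RNA in r was not tested. Sox17 was nearest to Ushbp1 (0.967), the endothelial receptor gene Tie1 (0.965) and Robo4 (0.964), Foxq1 to the VEGF receptor gene Flt1 (0.964), Tek (0.959) and Adgrf5 (0.958), and Foxf2 to the junction gene Esam (0.964), Apold1 (0.956) and Tbx3 (0.951). Apcdd1 was nearest to Arhgef15 (0.936), Igf1r (0.924) and Dok4 (0.918), and Lef1 to Adgrf5 (0.913), the efflux pump gene Abcb1a (0.910) and Adgrl4 (0.906). The nearest genes were less close for Axin2 (Tnfrsf19 at 0.897, Gpx7 at 0.885 and Sptbn1 at 0.877), Nkd1 (Tanc1 at 0.892, Lims2 at 0.885 and Clic4 at 0.880) and Fzd4 (Pdgfd and Prdm16 at 0.821 and Wfdc1 at 0.818). Tnfrsf19 is itself a known Wnt target. Between members, Foxf2 and Foxq1, the neighbours on chromosome 13, had the highest r (0.932) and Nkd1 and Fzd4 the lowest (0.367).

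Of the other 116 genes of the pathway and of the endothelial lists, the ligands were on the astrocyte side and the barrier genes and transcription factors on the endothelial side. The barrier genes and these transcription factors were listed as endothelial genes, with earlier results of these data known. Their endothelial side is therefore no separate finding, and their counts below are a description. Of 24 ligands, 10 could be compared with astrocytes in each region. In the cortex 3 were past 2-fold higher in endothelial cells and 6 lower, and in the hippocampus 2 and 6. Of all genes 25% and 25.2% were past 2-fold higher and 26.5% and 26.3% lower, so the share of ligands that were higher was near that of all genes. The medians of the ligands were -3.96 and -5.17 on the log2 scale against 0.06 and 0.14 over all genes. Astrocytes held Wnt7a at 47.5 and 32.8 CPM, Wnt7b at 58.3 and 56.3 CPM and Ndp at 70.6 and 76 CPM in the cortex and the hippocampus. Endothelial cells held the ligand Wnt5a at 42.2 and 31.4 CPM. Of 10 barrier genes, 9 could be compared with mural cells in the cortex and 10 in the hippocampus. All of these were past 2-fold higher in endothelial cells, with medians of 1.27 and 5.32. Of all genes 7.92% and 18% were past 2-fold higher and 14.6% and 15.7% lower. The 10 include Cldn5, also a marker that named the endothelial cells. They also include Plvap, which barrier endothelium lacks, with 310 UMIs in the 12 Plvap-led cells and 15 in the other 1843. Its place among the genes higher in hippocampal endothelial cells is thus not one of a barrier trait. All mural cells were used for the lists, with endothelial RNA in the cortical ones, and its part in the gap between regions was not tested. Of 18 other endothelial transcription factors, 9 of 18 and 13 of 17 were past 2-fold higher than in mural cells and 1 lower in each region, with medians of 1.03 and 3.68. The members' own medians against mural cells were 0.97 and 2.71, beside 0.05 and 0.08 over all genes.

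Of 18 receptor genes compared in the cortex none was past 2-fold higher in endothelial than in mural cells and 8 were lower, and in the hippocampus 1 of 15 was higher and 5 lower, where 7.92% and 18% of all genes were higher and 14.6% and 15.7% lower. Endothelial cells of the cortex and the hippocampus held the receptor gene Fzd6 at 220 and 215 CPM, the Fzd4 partner Tspan12 at 96.2 and 106 CPM, the Wnt7 coreceptor Adgra2 at 80.8 and 85.4 CPM and the coreceptor Lrp6 at 80.7 and 96.7 CPM. Of 16 transducers, none and 2 were higher and 2 and 2 lower than in mural cells, and the β-catenin gene Ctnnb1 was at 743 and 963 CPM. Of the inhibitors, 3 of 10 and 2 of 9 were higher and 5 and 5 lower. Ctnnbip1, an inhibitor that binds β-catenin, was at 241 and 191 CPM in endothelial cells, and the Wnt deacylase gene Notum at 83.9 and 76.8 CPM. Of the other Wnt targets, 2 of 6 were higher and 2 lower in the cortex, and 4 of 4 higher in the hippocampus, where Tnfrsf19 was at 148 CPM, Ccnd1 at 88.9 CPM and Bambi at 56.6 CPM.

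Between the regions, 2 of the 81 of these genes that could be compared in endothelial cells were past 2-fold higher and 6 past 2-fold lower in the hippocampus, where 4.31% and 3.82% of all genes were. None of 7 ligands and none of 16 transducers was past 2-fold, and the medians of the lists ran from -0.45 for the other Wnt targets to 0.25 for the other transcription factors, beside 0.14 for the members and for all genes. The ETS factor Erg was higher in the hippocampus, at 146 CPM (146, 148 and 143) against 34.8 CPM (31.2, 36.1 and 37.3), a log2 ratio of 2.07 [1.95, 2.19], and the forkhead gene Foxl2 was lower, at 1.08 against 61.6 CPM, a log2 ratio of -5.83 [-6.64, -5.13]. Plvap was at 22 CPM against 0.255 CPM, and 12 cells held 310 of its UMIs. The receptor genes Fzd7 and Ror1, the inhibitor genes Dkk3 and Frzb and the target Myc were past 2-fold lower, all from 3.11 CPM or less. The annotation differed between the preparations, and its part in these differences was not tested.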

How the data were processed

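Freshly dissociated brain cells were run on the 10x Chromium system. The authors deposited filtered matrices of raw UMI counts per gene and cell barcode, made with Cell Ranger (5.0.1 per the submitters' processing notes, 3.0.1 and 3.1.0 per the file headers) against mm10. The annotation was that of each matrix, and 27514 identifiers were in both. The members and gene lists were chosen with earlier results of these data known.

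The cells kept had from 250 to 6000 detected genes and a mitochondrial share below 25%, or below 15% for those of vascular classes, which left 4351 to 4587 cells per cortex and 4574 to 4830 per hippocampus library. In Seurat 5.3.0 (R 4.3.3), each preparation was log-normalised to 10000 UMIs, its 3 libraries were integrated by canonical correlation analysis on 2000 variable genes, and 30 components were clustered at resolution 0.5. A cluster was named from at least 3 markers found in at least 20% of its cells and at least 2-fold above the other clusters. The rule for naming segments (1.5-fold) was revised after a first set of names was seen. Vascular cells and endothelial cells were clustered again. In every clustering, that of all cells included, 121 listed genes were left out of the variable genes. Doublets called with Scrublet (scanpy 1.11.5, 0.8% per 1000 barcodes) were kept.

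UMIs were summed per class and library and scaled to CPM. Intervals are exact (Poisson for levels, the binomial split for ratios, binomial for shares), at 95%, and cover counting error only. A count of 0 was taken to allow 3 counts. Ratios were computed over genes with at least 20 UMIs in the 2 sums, and past 2-fold counted as higher or lower. With 1 biological sample per region no test was made. Named genes were the members, at most the 4 genes of each list with the highest endothelial CPM, genes past 2-fold between the regions in endothelial cells, and the 3 genes nearest to each member among those with at least 100 UMIs in each preparation. Genes named outside this rule are said to be so or are class markers, leading genes of a cluster, ligands in astrocytes and barrier genes of the Plvap-led cells, chosen after their values were seen. The interval code was tested on simulated counts. Alternatives covered replicates, integration, resolution, mitochondrial limit, doublets, shared barcodes, classing, depth, thresholds and scaling by TMM (edgeR 4.0.16) and median-of-ratios factors (DESeq2 1.42.0), and 1 was added after seeing the data. A comparison of protein sequences was not made, and a second cortical preparation was not analysed here.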

Additional observations from a re-analysis of the deposited data

How the results depend on the processing

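Of 532 summary values recomputed under the alternatives, 504 stayed within their replicate spread or within 1.5 times the count and 28 moved. The values that moved most concerned cortical pericytes. The number of members past 2-fold higher in endothelial cells than in cortical pericytes was 0 with all cells, 0 to 1 with a replicate left out (1, Apcdd1, without cortex replicate 3), 6 at resolution 1.0, 6 with cells classed by their own markers, 6 with the mural subclusters rich in endothelial RNA left out (added after seeing the data) and 7 with cells poor in the other class's RNA. Against all cortical mural cells the 4 members became 6, with Fzd4 and Foxf2, under the last 4 of these alternatives, 2 under a 10% mitochondrial limit and 0 at 4-fold. In cells poor in the other class's RNA the log2 ratio of Lef1 was 5.99 and that of Sox17 7.48, and that of Nkd1 turned from 0.18 to -0.36, as it did in sign under 2 other alternatives. The 23 pathway genes higher in endothelial cells became 36, 14, 37 and 36 at resolution 1.0, under the 10% limit, in cells poor in the other class's RNA and without the rich subclusters. In the hippocampus the log2 endothelial to mural ratio of Nkd1 went from 0.34 to 3.34 at resolution 0.2 and to 1.29 under the 10% mitochondrial limit. Apart from the 4-fold threshold, the cause of these changes was not tested.

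At resolution 0.2 the venous cells were Ackr1-rich subclusters of 60 and 21 cells, the arterial to venous log2 ratio turned to 0.43 for Apcdd1 in the cortex and to 0.38 and 0.37 for Nkd1 in the cortex and the hippocampus, that of Foxq1 in the hippocampus went from -0.02 to 1.11, and the members lower in arterial cells, in direction alone, were 2 instead of 4 and 3 instead of 7. No cortical pericyte class formed at that resolution. Thinning to 1000 UMIs gave highest and lowest member shares of 32.9% and 3.77% in cortical and 42.9% and 2.91% in hippocampal endothelial cells and 1.51 and 1.68 members per cell, and thinning to 4000 gave 75.1% and 15.5%, 82.7% and 12%, and 3.99 and 4.10 members. At resolution 1.0 the hippocampal value was 2.65 members. With no filter on low counts, pathway genes lower in hippocampal endothelial than mural cells were 25 instead of 14, and those past 2-fold between regions 13 instead of 8.

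Of 1232 values of single members, 1043 stayed within the replicate spread, 187 moved, and 2 that were past 2-fold turned sign (Apcdd1 and Nkd1 above). Counting ratios within the threshold too, 15 of 72 turned sign under at least 1 alternative. Segments were not recomputed with cells classed by their own markers. In the Plvap-led cells (80941 UMIs) depth left a difference in Apcdd1 undetectable. No paired analysis was possible because the replicate numbers count technical libraries of different suspensions and no result comes from a test.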
